A study of Homo sapiens with 50 samples.

Results

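The comparison set H1 cultures given IWP2 together with NaHCO3 against differentiation controls given neither, both on day 11 of cardiac differentiation. H1 is an established line of human embryonic stem cells, wild type in genotype per the labels, and every group used here was this 1 line under the same cardiac differentiation label. IWP2 is a small molecule that blocks Porcupine, the enzyme that readies WNT ligands for release, and NaHCO3 (sodium bicarbonate) is a base. The combination and the control had 2 RNA sequencing libraries each, out of 50 libraries in 25 groups. All genes with at least 1 FPKM (counts scaled by exon length and library total) in 2 or more of these 4 libraries were taken, 14651 of the 57905 genes in the table. Libraries of day 11 with IWP2 alone and with NaHCO3 alone, and libraries of day 7 with the combination and of the control, are used beside them, 2 in each group. The series is about pH modulation, but doses, times of addition and measured pH are not given in the sources used here, and with no other salt among the groups, effects of pH and of sodium or bicarbonate cannot be told apart. Nothing in the labels says whether the 2 libraries of a group came from separate cultures, so p-values measure only the spread between these libraries, which may be technical.

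WNT signalling acts in stages during heart formation: it first drives pluripotent cells into mesendoderm, and it must then be held down for mesoderm to become heart muscle. Inhibitors of WNT release are therefore a standard step in making cardiomyocytes from stem cells. Cultures of this kind can also hold endoderm with liver-type features, stroma, mesothelium and endothelium, all of which give RNA to a bulk library.

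With IWP2 and NaHCO3, 4 of 10 myosin genes, 8 of 19 Z-disc genes and 7 of 20 cardiac transcription factors fell below the control on day 11, as did HNF4A, a liver factor. All 7 metallothionein genes taken were called as higher, MT1L with a call that was lost when 1 library was left out, as were the stromal proteoglycans LUM and DCN and the secreted WNT antagonists FRZB and SFRP2. LUM, DCN and SFRP2 each lost the call in 1 or more alternative analyses. Of the 14651 genes, 264 rose (1.80%) and 367 fell (2.50%), together 631 (4.31%). Calls required an adjusted p under 0.05 in edgeR's quasi-likelihood test (Benjamini-Hochberg over all 18451 genes fitted) together with a log2 fold change of 1 or more in either direction. Among those 18451 genes, 322 rose (1.75%) and 565 fell (3.06%), together 887 (4.81%). In each of the 631 called genes both libraries of one group lay above both of the other. The limits for a call favour this, and the share over all 14651 genes was not counted, so it adds no support. The median size of change was 1.40 on the log2 scale among risen genes and 1.35 among fallen ones, and 51 risen and 46 fallen genes changed 4-fold or more. The median over all 14651 genes was 0.02. A further 4910 genes had an adjusted p under 0.05 with a fold change under the limit. Of all the genes taken, 13011 passed the level in both groups in full, 182 only through the combination and 469 only through the control; 75 of those 182 rose and 161 of those 469 fell, which their selection favours. At the edge of the selection, RIMBP2 and RGS9 were included with a second highest level of 1 FPKM, and DZANK1, SLC16A10 and CPXM2 were left out with 0.99 FPKM.

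**Figure D1:**
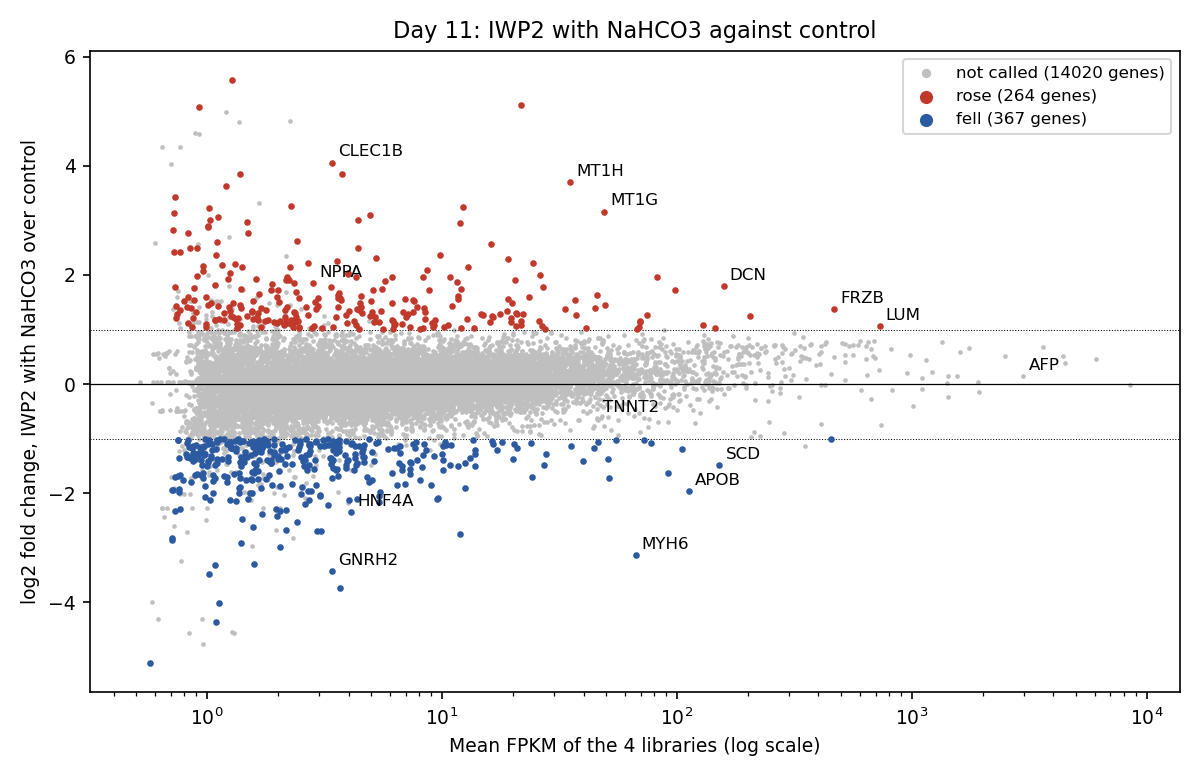
Log2 fold change of IWP2 with NaHCO3 over control on day 11 (vertical axis) against the mean FPKM of the 4 libraries (horizontal axis, log scale); each point is 1 of 14651 genes, red for the 264 that rose, blue for the 367 that fell and grey for those not called, with dotted lines at a log2 fold change of 1 in size. MYH6 at -3.13 and APOB at -1.96 stand out among abundant fallen genes, and MT1G at 3.16 and FRZB at 1.38 among abundant risen ones.

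Counts in genes summed to between 17849754 and 20421238 in the 4 libraries. Mitochondrially encoded genes took 4.06% and 4.08% of counts with the combination and 3.81% and 3.95% in the control. The 10 cardiomyocyte markers, of which 5 fell and 0 rose, summed to 316 and 325 FPKM with the combination, against 574 and 776 FPKM in the control. The 10 liver markers, of which 3 fell and 0 rose, summed to 5235 and 4878 FPKM with the combination, against 5155 and 6103 FPKM in the control, so liver-type transcripts were abundant in both groups of these cultures labelled as cardiac differentiation. The 6 fibroblast markers, of which 2 rose, summed to 3626 and 3697 FPKM, against 3213 and 3192 FPKM, and the 7 endothelial markers, of which 4 met the level and 1 rose, to 155 and 158 FPKM, against 106 and 120 FPKM. Smooth muscle markers, of which 1 of 4 fell, summed to 154 and 150 FPKM, against 261 and 268 FPKM. NANOG of pluripotent cells, SOX1 of neural cells and MYOD1 and MYF5 of skeletal muscle had no counts in the 4 libraries, and POU5F1 had 0.03 and 0 FPKM with the combination, against 0.07 and 0.04 FPKM in the control. The 4 neural markers still summed to 68.25 and 68.89 FPKM with the combination, against 23.56 and 23.88 FPKM in the control. STMN2, the 1 neural marker that met the level, rose. The 4 pluripotent markers summed to 13.7 and 13.4 FPKM, against 11.7 and 12.1 FPKM, with DPPA4 the 1 that met the level. In bulk samples fewer cells of a type and less RNA per cell cannot be told apart, and the part of these marker shifts in the gene results was not tested.

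Metallothioneins were higher with the combination; they are small cysteine-rich proteins that bind zinc and copper and whose genes are switched on by metals through the transcription factor MTF1. All 7 metallothionein genes that met the level were called as higher; MT1L lost its call without combination replicate 1 (log2 1.01; edgeR, adjusted p = 0.242), without control replicate 1 (log2 1.05; edgeR, adjusted p = 0.182) and with limma on log2(FPKM + 0.1) (adjusted p = 0.0939). The 7 lie together on chromosome 16, and the family was picked out after its values had been seen. MT1H (ENSG00000205358, chromosome 16, 56703726 to 56705041 on GRCh37, plus strand) had 66.7 and 62.8 FPKM with the combination, against 5.87 and 4.73 FPKM in the control (log2 fold change 3.7 ± 0.21, with its SE after the sign here and throughout; edgeR, adjusted p = 1.04e-13). MT1G had 89 and 86.7 FPKM with the combination, against 10.4 and 10.5 FPKM in the control (log2 3.16 ± 0.25; edgeR, adjusted p = 1.56e-08). In both genes the groups were far apart and the libraries within a group close. MT2A had 33.3 and 36.1 FPKM with the combination, against 11.7 and 12.7 FPKM in the control (log2 1.6 ± 0.21; edgeR, adjusted p = 6.30e-06). MT1E, MT1F and MT1X had log2 fold changes of 1.997, 2.1 and 2.02. MT1L scattered more, at 7.27 and 3.48 FPKM with the combination, against 1 and 2.73 FPKM in the control (log2 1.64 ± 0.47). With IWP2 alone MT1H had 0.08 and 0.08 FPKM and MT2A 2.73 and 0.96 FPKM, below the control, and with NaHCO3 alone they had 33.1 and 21.7 FPKM and 26.5 and 28 FPKM, above it. The genes are near-identical copies of one another, so the split of reads between them is uncertain.

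Upstream sequences of 3 of these genes are shown because the family moved together and the element that answers to metals has a short known core. MT2A, MT1H and MT1X of the 7 were matched in the RefSeq table on GRCh38.p14, and the 250 bases before each start are printed on the gene's strand. Capitals mark matches to the metal response element core, TGCACNC or TGCGCNC, on either strand; a match on the opposite strand reads GNGTGCA or GNGCGCA, and neighbouring matches may overlap.
MT2A (chr16:56608334-56608583, plus strand): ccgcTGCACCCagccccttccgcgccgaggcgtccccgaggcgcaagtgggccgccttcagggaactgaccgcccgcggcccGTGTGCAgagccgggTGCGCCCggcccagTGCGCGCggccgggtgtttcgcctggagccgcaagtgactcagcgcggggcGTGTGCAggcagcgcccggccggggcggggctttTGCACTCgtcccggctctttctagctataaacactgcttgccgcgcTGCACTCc
MT1H (chr16:56669564-56669813, plus strand): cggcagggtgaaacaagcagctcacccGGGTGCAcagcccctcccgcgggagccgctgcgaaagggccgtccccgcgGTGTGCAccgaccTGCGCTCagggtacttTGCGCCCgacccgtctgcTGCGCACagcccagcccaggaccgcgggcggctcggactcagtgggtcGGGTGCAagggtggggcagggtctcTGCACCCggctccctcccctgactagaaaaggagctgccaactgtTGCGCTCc
MT1X (chr16:56682220-56682469, plus strand): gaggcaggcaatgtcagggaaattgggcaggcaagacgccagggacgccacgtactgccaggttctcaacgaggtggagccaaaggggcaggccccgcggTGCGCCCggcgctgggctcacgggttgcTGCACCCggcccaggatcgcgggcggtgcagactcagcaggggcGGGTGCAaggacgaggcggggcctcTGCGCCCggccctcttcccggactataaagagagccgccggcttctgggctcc

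The window of MT2A held 7 matches, that of MT1H 8 and that of MT1X 4. Of 35116 starts in the table, 24.8% held at least 1 match in a window of 250 bases, 9.87% the TGCACNC form and 16.8% the TGCGCNC form, 0.37% held 4 matches or more and 0.0313% held 7 or more. A match is a description of the letters and not a measured binding site.

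**Figure D2:**
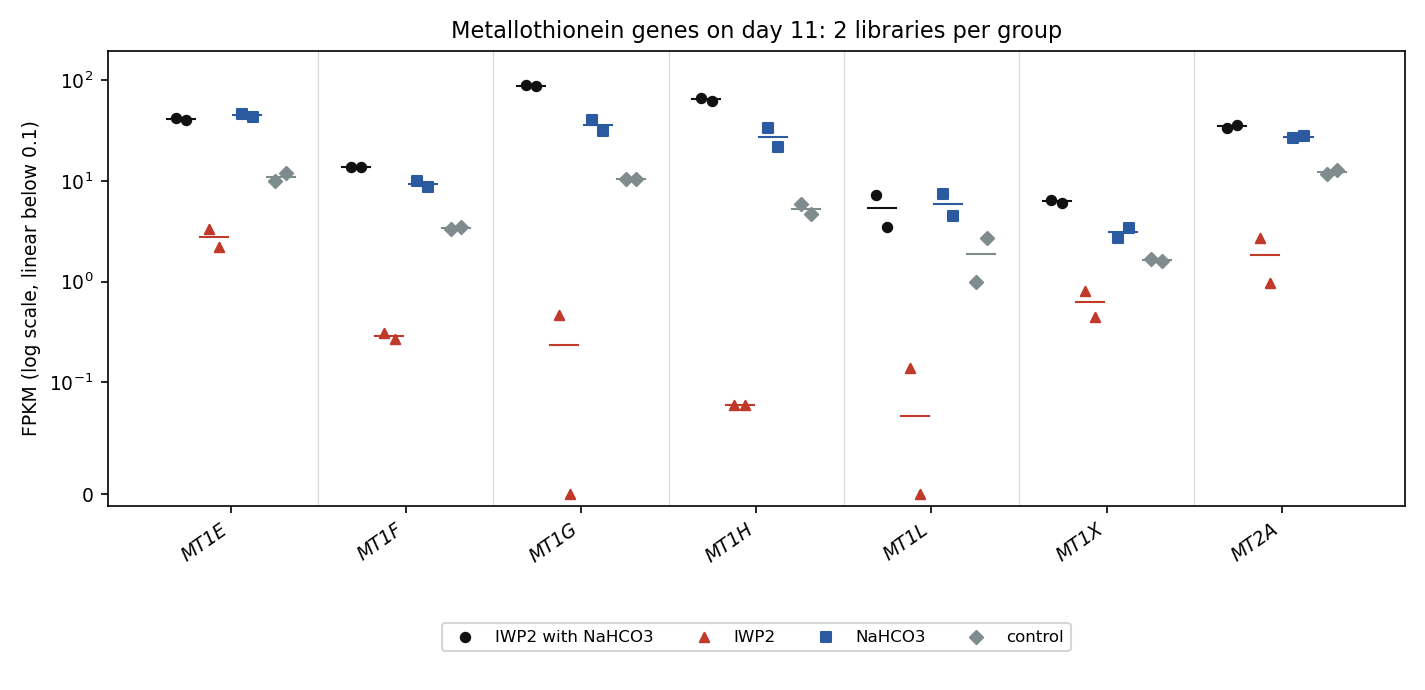
FPKM of the 7 metallothionein genes on day 11 (vertical axis, log scale that is linear below 0.1) in the 2 libraries of each group, with a line at the group mean; groups run from left to right as IWP2 with NaHCO3, IWP2, NaHCO3 and control. In each gene both libraries with the combination lie above both of the control and both with IWP2 alone lie below it, with MT1H at 66.7 and 62.8 FPKM with the combination and 5.87 and 4.73 FPKM in the control.

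Other genes with large rises coded for receptors, carriers and secreted proteins. CLEC1B, a C-type lectin receptor known from platelets and liver sinusoidal endothelium, had 6.23 and 6.6 FPKM with the combination, against 0.4 and 0.41 FPKM in the control (log2 4.06 ± 0.34; edgeR, adjusted p = 4.73e-09). It had 1.05 and 0.53 FPKM with IWP2 alone and 0.28 and 0.29 FPKM with NaHCO3 alone, so the combination lay above each of the other 3 groups. CLEC1B met the level only through the combination, so that its selection favours a rise. SYT4, a synaptotagmin of secretory vesicles, had 7.37 and 8.2 FPKM with the combination, against 1.14 and 0.91 FPKM in the control (log2 3.01 ± 0.18; edgeR, adjusted p = 1.34e-13), and 0.6 and 0.36 FPKM with IWP2 and 0.06 and 0.05 FPKM with NaHCO3 alone. For SYT4 too the combination was the highest of the 4 groups. PTX3, a secreted pentraxin of innate immunity, had 22.3 and 21.8 FPKM, against 2.21 and 2.77 FPKM in the control (log2 3.24 ± 0.20). SLC5A12, a sodium-coupled lactate carrier known from kidney and intestine, had 20.3 and 21.4 FPKM, against 2.8 and 2.96 FPKM in the control (log2 2.95 ± 0.09; edgeR, adjusted p = 3.35e-21). AGTR1, the type 1 angiotensin II receptor, had 7.81 and 9.73 FPKM, against 0.79 and 1.4 FPKM in the control (log2 3.1 ± 0.24). With NaHCO3 alone PTX3, SLC5A12 and AGTR1 stood at 20.9 and 19.8, 35.3 and 31.4 and 10.3 and 9.3 FPKM, and with IWP2 alone all 3 were below 1 FPKM. OLR1, a scavenger receptor for oxidised lipoproteins, rose by 2.36 on the log2 scale. RP5-899B16.1, known here only by its clone name, had 6.99 and 7.01 FPKM, against 0.19 and 0.85 FPKM in the control, and was not called with DESeq2 (adjusted p = 0.639). It also met the level only through the combination.

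Part of the contractile genes fell with the combination. MYH6, the atrial myosin heavy chain (ENSG00000197616, chromosome 14, 23851199 to 23877486 on GRCh37, minus strand), had 13.5 and 12.3 FPKM with the combination, against 88.6 and 152 FPKM in the control (log2 -3.13 ± 0.71; edgeR, adjusted p = 0.00374). Both combination libraries lay well under both control libraries, although those differed from each other. Of 10 myosin and thick filament genes, 4 fell and 0 rose (median log2 -0.54, beside 0.02 over all genes): MYH6, MYBPC3, MYOM1 and MYOM2, the last of which met the level only through the control. MYBPC3, cardiac myosin-binding protein C, had 5.01 and 5.06 FPKM, against 18.6 and 21.3 FPKM in the control (log2 -1.9 ± 0.43; edgeR, adjusted p = 0.00373). MYOM1, a protein of the M-band, had 2.65 and 2.66 FPKM, against 9.57 and 10.8 FPKM, and MYOM2, of the same band, had 0.92 and 0.79 FPKM, against 1.93 and 1.88 FPKM, and a log2 fold change of -0.97 without combination replicate 2, under the limit for a call. MYH7, the slow myosin heavy chain and a near copy of MYH6, so that the split of reads between them is uncertain, had 5.64 and 5.22 FPKM, against 3.71 and 3.81 FPKM in the control, and was not called (log2 0.62, 95% interval -0.43 to 1.67; edgeR, adjusted p = 0.421). MYL7, the atrial light chain, had 186 and 198 FPKM, against 321 and 435 FPKM in the control, and was under the fold limit (log2 -0.89 ± 0.22; edgeR, adjusted p = 0.00751). Of 9 troponin, tropomyosin and sarcomeric actin genes, ACTC1, the cardiac actin, fell, at 60.6 and 62.2 FPKM with the combination and 129.6 and 167 FPKM in the control (log2 -1.18 ± 0.19), and stood at -0.96 without control replicate 2. TNNT2, cardiac troponin T, had 35.6 and 33.4 FPKM, against 53.6 and 60.3 FPKM (log2 -0.63 ± 0.15; edgeR, adjusted p = 0.00419), and TNNI1, the slow troponin I of embryonic heart, had 57.4 and 59.6 FPKM, against 66.2 and 75.5 FPKM; neither was called. Of 19 Z-disc, titin and myosin assembly genes, 8 fell and 0 rose (median log2 -0.73); of the fallen ones SYNPO2L met the level only through the control. ACTN2, the sarcomeric alpha-actinin, had 7.27 and 6.57 FPKM, against 18.2 and 23.4 FPKM in the control (log2 -1.5 ± 0.29; edgeR, adjusted p = 0.00133). UNC45B, a chaperone that folds myosin, had 3.58 and 3.42 FPKM, against 11 and 14.2 FPKM (log2 -1.76 ± 0.28), and XIRP1, an actin-binding protein of the intercalated disc, had 1.19 and 0.88 FPKM, against 3.75 and 4.88 FPKM (log2 -1.96 ± 0.35). TTN, titin, and LDB3, a Z-disc scaffold, fell by 1.22 and 1.29 on the log2 scale, and SYNPO2L fell by 1.29, with an adjusted p of 0.0668 without combination replicate 2 (edgeR).

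Some genes of calcium handling and excitation changed too. Of 16 calcium handling genes, 3 fell and 0 rose (median log2 -0.73), and of the fallen ones CACNA1D met the level only through the control. CACNA1D, an L-type calcium channel of pacemaker cells, had 0.42 and 0.41 FPKM with the combination, against 2.72 and 2.72 FPKM in the control (log2 -2.62 ± 0.20; edgeR, adjusted p = 7.72e-09). HRC, a calcium-binding protein of the sarcoplasmic reticulum, had 3.7 and 3.25 FPKM, against 14 and 17.6 FPKM in the control (log2 -2.09 ± 0.24). RYR2, the calcium release channel, sat at the limit with -1.003 on the log2 scale, and at -0.93 without combination replicate 2 and -0.99 without control replicate 1. PLN, which inhibits the calcium pump of the reticulum, had 25 and 25.2 FPKM, against 19.8 and 26.2 FPKM, overlapping groups with a 95% interval of -0.39 to 0.82 for the log2 difference. Of 14 sodium and potassium channel, pump and connexin genes, 5 fell and 1 rose; 2 of the fallen ones met the level only through the control, and the risen one, GJA5, only through the combination. HCN4, the pacemaker channel, had 15.5 and 15.2 FPKM, against 45.2 and 34.7 FPKM in the control (log2 -1.28 ± 0.12; edgeR, adjusted p = 3.02e-07). KCNIP2, a subunit of a potassium channel of the heart, had 1.09 and 1.18 FPKM, against 4.53 and 5.34 FPKM (log2 -2.03 ± 0.27), and KCNJ5 and KCNJ3 fell too, KCNJ3 with -0.97 without combination replicate 1. GJA5, the connexin of atrial muscle and arteries, rose, at 1.86 and 1.45 FPKM with the combination and 0.69 and 0.74 FPKM in the control (log2 1.31 ± 0.28). GJA1, the most abundant connexin here, had 227 and 219 FPKM, against 184 and 181 FPKM, under the fold limit. Of 7 creatine kinase and oxygen buffer genes, MB (myoglobin), SLC6A8 (the creatine importer) and CKB fell, CKB with log2 fold changes of -0.92 without control replicate 2 and -0.98 without combination replicate 1.

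Of 20 cardiac transcription factors, 7 fell and 1 rose (median log2 -0.82). NKX2-5, an early heart homeobox factor (ENSG00000183072, chromosome 5, 172659112 to 172662360 on GRCh37, minus strand), had 3.6 and 3.96 FPKM with the combination, against 9.4 and 12.6 FPKM in the control (log2 -1.45 ± 0.19; edgeR, adjusted p = 1.57e-05). MYOCD, myocardin, a coactivator of muscle genes, had 1.82 and 1.43 FPKM, against 4.9 and 6.27 FPKM in the control (log2 -1.68 ± 0.23). TBX5, a factor of the first heart field and the atria, had 7.44 and 7.92 FPKM, against 20.5 and 19.4 FPKM in the control (log2 -1.28 ± 0.25; edgeR, adjusted p = 0.00144). In NKX2-5, MYOCD and TBX5 the groups did not overlap, as in every called gene. TBX3, a repressor of the conduction system, had 2.09 and 2.05 FPKM, against 7.34 and 7.99 FPKM (log2 -1.8 ± 0.10; edgeR, adjusted p = 1.29e-13). TBX2, a relative of TBX3, fell by 1.55 and ISL1, a factor of the second heart field, by 1.4 on the log2 scale. SMYD1 also fell and HOPX rose; these are named after their values were seen. HAND1 and HAND2, factors of lateral mesoderm and heart, were not called: HAND1 had 237 and 255 FPKM, against 234 and 247 FPKM, and HAND2 had 73.1 and 75.8 FPKM, against 83.9 and 83.4 FPKM. NPPA, atrial natriuretic peptide, rose while these factors fell, at 4.46 and 4.27 FPKM with the combination and 0.96 and 1.65 FPKM in the control (log2 1.84 ± 0.34; edgeR, adjusted p = 0.000325). NR2F1, an atrial nuclear receptor, was called as higher (log2 1.12) and stood at 0.85 without combination replicate 2.

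**Figure D3:**
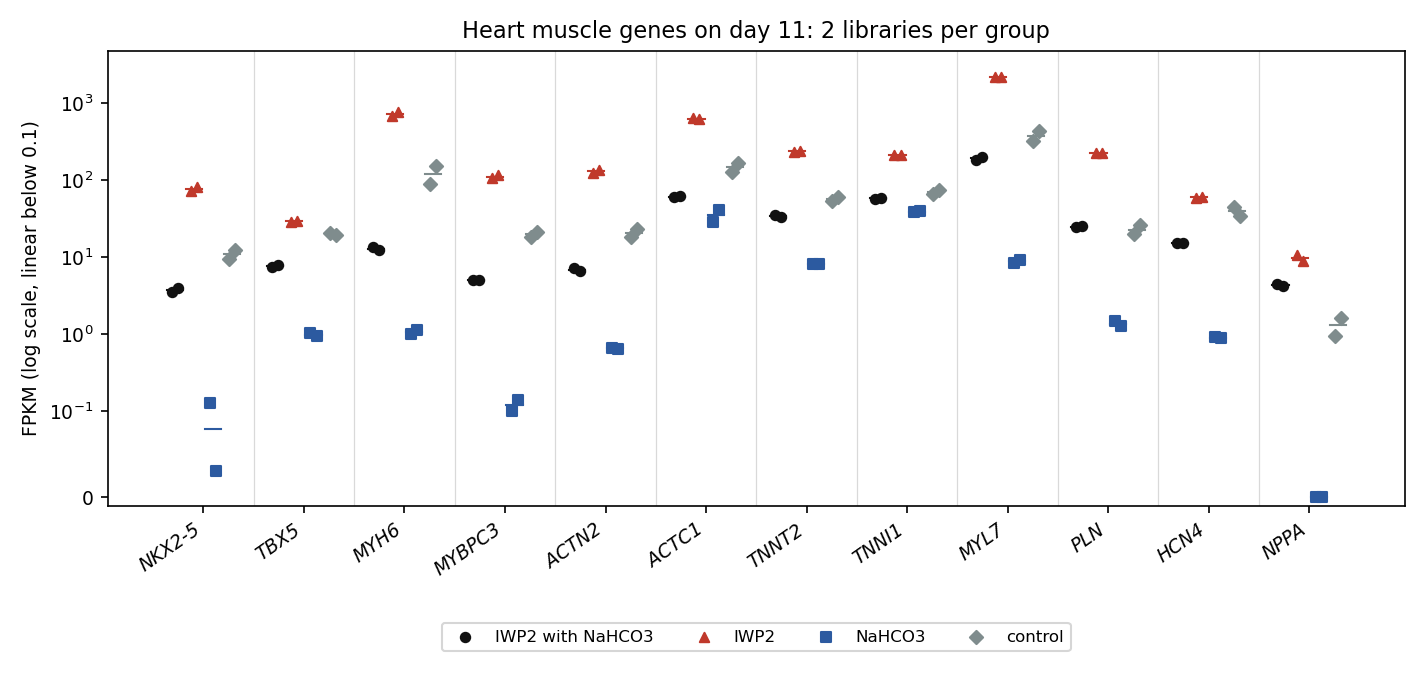
FPKM of 12 heart muscle genes on day 11 (vertical axis, log scale that is linear below 0.1) in the 2 libraries of each group, with a line at the group mean; groups run from left to right as IWP2 with NaHCO3, IWP2, NaHCO3 and control. For each of the 12, which were picked by hand, IWP2 alone is the highest group and NaHCO3 alone the lowest. NKX2-5 stands at 3.6 and 3.96 FPKM with the combination, 72.2 and 82.1 FPKM with IWP2, 0.13 and 0.03 FPKM with NaHCO3 and 9.4 and 12.6 FPKM in the control.

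For the 12 plotted heart muscle genes IWP2 alone lay above the control and NaHCO3 alone below it. The 12 were picked by hand, so their shared order is no result about heart genes at large. Of 20 cardiac transcription factors, 9 rose and 2 fell with IWP2 against control, and 1 rose and 10 fell with NaHCO3. MYH6 had 13.5 and 12.3 FPKM with the combination, 685 and 773 FPKM with IWP2 alone, 1 and 1.15 FPKM with NaHCO3 alone and 88.6 and 152 FPKM in the control. Over the 19 Z-disc genes the median log2 difference from the control was -0.73 with the combination, 2.39 with IWP2 and -3.13 with NaHCO3. Genes of chamber identity did not follow that order: over 19 of them the median was -0.55 with the combination, -0.12 with IWP2 (5 rose and 8 fell) and -3.77 with NaHCO3 (2 rose and 14 fell). Over the 22 liver-type plasma protein genes it was -0.19 with the combination, -4.81 with IWP2 and -0.17 with NaHCO3. IWP2 alone had 1979 of the 14651 genes called against control (13.5%) and NaHCO3 alone 2309 (15.8%). These comparisons share the 2 control libraries, so their values are set side by side and no likeness between them is taken as a result.

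**Figure D4:**
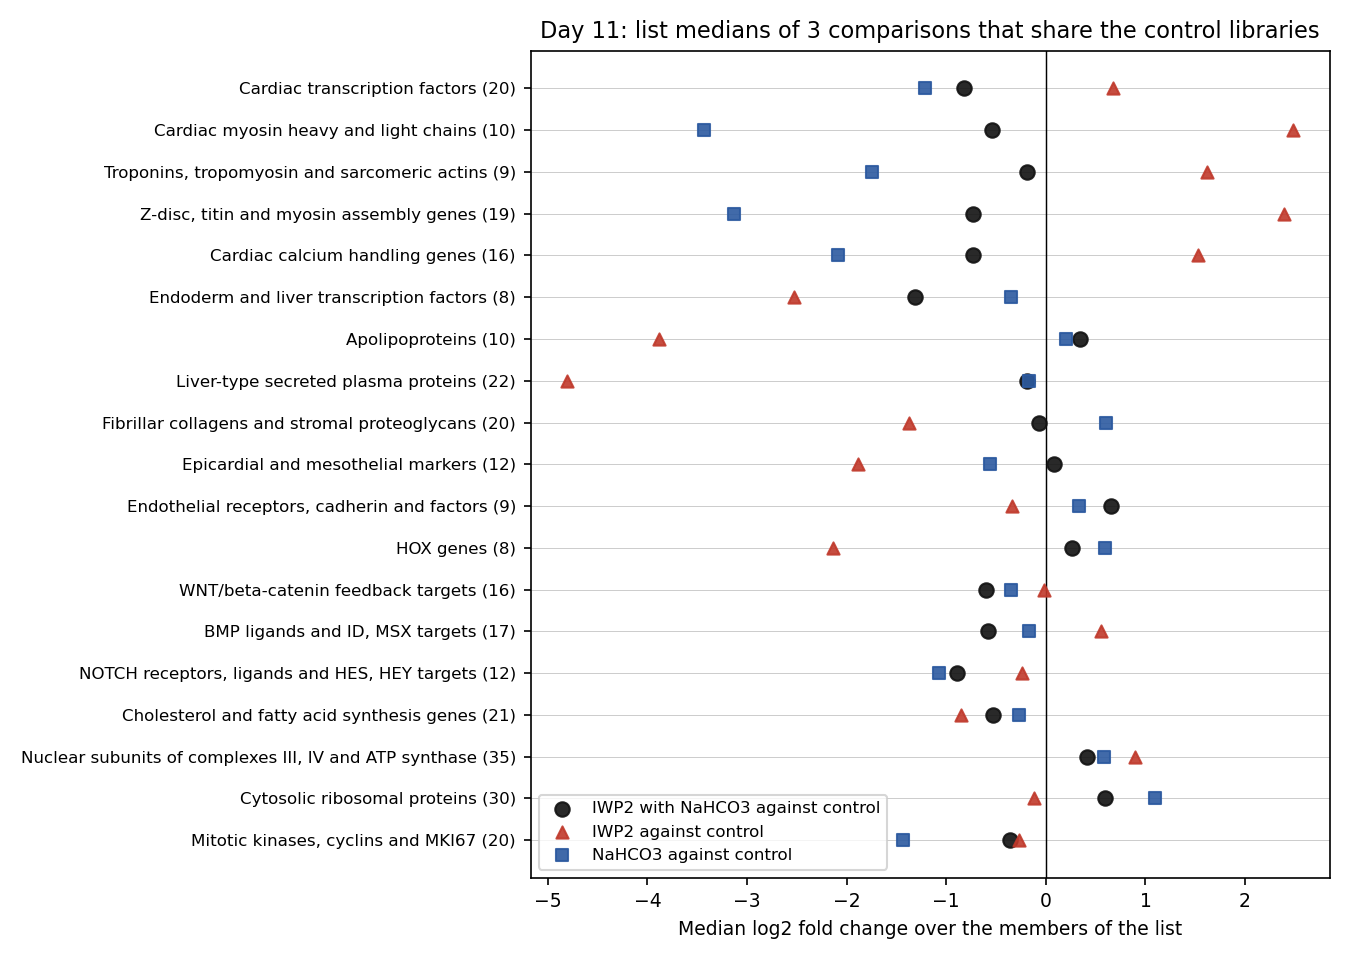
Median log2 fold change against the control on day 11 over the genes of 19 lists (rows, with the number of genes that met the level), for IWP2 with NaHCO3 (black circles), IWP2 alone (red triangles) and NaHCO3 alone (blue squares), which share the control libraries. Myosin genes stand at -0.54, 2.49 and -3.43, and liver-type plasma proteins at -0.19, -4.81 and -0.17.

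HNF4A fell with the combination, while AFP and TTR, abundant liver products, were not called. HNF4A, a nuclear receptor that organises liver gene expression (ENSG00000101076, chromosome 20, 42984340 to 43061485 on GRCh37, plus strand), had 1.37 and 1.19 FPKM with the combination, against 6.3 and 7.57 FPKM in the control (log2 -2.34 ± 0.20; edgeR, adjusted p = 1.59e-07). FOXA2, a pioneer factor of endoderm, had 0.7 and 0.34 FPKM, against 2.51 and 3.31 FPKM in the control (log2 -2.37 ± 0.28; edgeR, adjusted p = 2.00e-07). Of 8 transcription factors of endoderm and liver 5 fell and 0 rose, but 4 of the fallen ones, FOXA2, CEBPA, CDX2 and PROX1, met the level only through the control, so that their selection favours a fall and the count supports nothing about the list. PROX1 is also a factor of heart and lymphatic vessels. LINC00261, a long noncoding RNA known as a neighbour of FOXA2, had 1.59 and 1.25 FPKM, against 5.88 and 7.29 FPKM (log2 -2.12 ± 0.23). AFP, the fetal counterpart of albumin, had 3109 and 2934 FPKM, against 2635 and 3158 FPKM, overlapping groups with a 95% interval of -0.98 to 1.28 for the log2 difference (edgeR, adjusted p = 0.885). TTR, a carrier of thyroid hormone and retinol, had 491 and 449 FPKM, against 398 and 476 FPKM, also overlapping. Of 22 liver-type plasma proteins, 4 fell and 1 rose. F2, prothrombin, had 1.31 and 0.82 FPKM, against 3.95 and 4.97 FPKM (log2 -1.96 ± 0.24), and AGT, angiotensinogen, had 11.8 and 9.76 FPKM, against 35.3 and 39.9 FPKM (log2 -1.71 ± 0.28; edgeR, adjusted p = 0.000439). F10, a clotting factor, fell by 1.1 on the log2 scale. C3, of complement, had 1.91 and 1.7 FPKM, against 3.66 and 4.34 FPKM (log2 -1.06 ± 0.31). It stood at -0.91 without control replicate 2 and -0.98 without combination replicate 2, had an adjusted p of 0.0607 without combination replicate 1 (edgeR), and was not called with DESeq2 (adjusted p = 0.0664). SERPINA6, the cortisol carrier, was called as higher at 8.59 and 5.25 FPKM, against 2.54 and 4.14 FPKM, and stood at 0.75 without combination replicate 1 and 0.81 without control replicate 1.

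Of 10 apolipoprotein genes, 2 fell and 1 rose (median log2 0.34). APOB, the protein of low density lipoproteins, had 49.5 and 37.8 FPKM with the combination, against 178 and 184 FPKM in the control (log2 -1.96 ± 0.33; edgeR, adjusted p = 0.00042). APOA1, of high density lipoproteins, had 309.9 and 268 FPKM, against 567 and 670.3 FPKM (log2 -1.01 ± 0.23), and stood at -0.86 without control replicate 2 and -0.91 without combination replicate 2. APOA2 had 655 and 641 FPKM, against 442 and 514 FPKM, and was not called (log2 0.53; edgeR, adjusted p = 0.118). APOH, called as higher at 2.72 and 3.42 FPKM, against 1.34 and 1.81 FPKM, had adjusted p-values of 0.0582, 0.195 and 0.237 without combination replicate 1, combination replicate 2 and control replicate 1 (edgeR), and 0.137 with DESeq2. SLC10A1, the bile acid importer, had 0.74 and 0.75 FPKM, against 4.74 and 5.52 FPKM in the control (log2 -2.69 ± 0.40), and SLCO2B1, an organic anion importer, had 1.29 and 0.9 FPKM, against 4.89 and 5.99 FPKM (log2 -2.22 ± 0.21). SLC10A1 met the level only through the control, which favours a fall. SLC22A7, another organic anion carrier, fell by 2.15 on the log2 scale. Of 14 epithelial genes, the claudins CLDN3, CLDN4 and CLDN7 fell and 0 rose; CLDN3, a tight junction protein that met the level only through the control, had 0.85 and 0.91 FPKM, against 4.1 and 4.53 FPKM (log2 -2.2 ± 0.32). KRT19 and KRT8, keratins of simple epithelia, and EPCAM, an epithelial adhesion protein, were not called, with KRT19 at 130.2 and 140.1 FPKM, against 125 and 145 FPKM. Of 8 intestinal and yolk sac genes, VIL1, CDX2, CUBN and AMN fell, the first 3 of which met the level only through the control, so that the count supports nothing about the list; VIL1, villin of the brush border, had 0.54 and 0.49 FPKM, against 2.16 and 2.27 FPKM, and AMN stood at -0.97 on the log2 scale without control replicate 2. LAMB3, a laminin chain of epithelial basement membranes, had 0.76 and 0.79 FPKM, against 4.93 and 5.68 FPKM (log2 -2.68 ± 0.27), and GNRH2, a gonadotropin releasing hormone, had 0.42 and 0.67 FPKM, against 5.84 and 6.67 FPKM (log2 -3.43 ± 0.43; edgeR, adjusted p = 4.18e-07). LAMB3, GNRH2 and AL591025.1 met the level only through the control, which favours a fall. AL591025.1 had 0.74 and 0 FPKM, against 4.65 and 9.34 FPKM, and its log2 fold change of -3.74 was -6.02 without combination replicate 1, -2.97 and no longer called without combination replicate 2, and -3.16 and no longer called without control replicate 2.

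The proteoglycans LUM and DCN rose with the combination, while the fibrillar collagens COL1A1 and COL3A1 were not called. LUM, lumican, which spaces collagen fibrils, had 950.4 and 982 FPKM with the combination, against 477 and 505 FPKM in the control (log2 1.07 ± 0.18; edgeR, adjusted p = 0.000443). With limma on log2(FPKM + 1) and on log2(FPKM + 0.1) LUM stood at 0.98, under the limit for a call. DCN, decorin, of the same family, had 235 and 249 FPKM, against 70.4 and 77.3 FPKM (log2 1.8 ± 0.43; edgeR, adjusted p = 0.00564), with an adjusted p of 0.0576 without control replicate 1. MGP, an inhibitor of calcification in matrix, had 26.9 and 27.8 FPKM, against 4.8 and 5.07 FPKM (log2 2.56 ± 0.18). Of 20 matrix genes, 2 rose and 2 fell (median log2 -0.07); the fallen ones were TNC, tenascin, at 5.52 and 5.39 FPKM, against 16.5 and 15.8 FPKM, and COL6A3, a collagen of microfibrils. COL3A1, a major fibrillar collagen, had 1876 and 1898 FPKM, against 1944 and 1945 FPKM, with a 95% interval of -0.27 to 0.36 for the log2 difference. Of 12 epicardial and mesothelial genes, 3 rose and 0 fell. ITLN1, a lectin made by mesothelium, had 7.36 and 7.41 FPKM, against 1.62 and 1.17 FPKM (log2 2.49 ± 0.33), UPK3B, a mesothelial uroplakin, had 22.8 and 22.5 FPKM, against 10.4 and 9.78 FPKM (log2 1.25 ± 0.15), and ALDH1A2, which makes retinoic acid and met the level only through the combination, rose by 1.59. WT1, a factor of the epicardium, had 12.1 and 11.9 FPKM, against 16.1 and 14.5 FPKM, and was not called (edgeR, adjusted p = 0.145). Of 9 endothelial genes, 4 rose and 0 fell; CLDN5 and MMRN1, 2 of the 4, met the level only through the combination, so that their selection favours a rise and the count supports nothing about the list. CLDN5, the claudin of vessel walls, had 2.13 and 3 FPKM, against 0.18 and 0.2 FPKM (log2 3.85 ± 0.33; edgeR, adjusted p = 3.15e-10), and MMRN1, multimerin, had 2.2 and 2.09 FPKM, against 0.48 and 0.51 FPKM. TEK, the angiopoietin receptor, had 54.9 and 53.3 FPKM, against 27.7 and 28.5 FPKM (log2 1.04, and 0.99 without control replicate 1), and EMCN, endomucin, rose by 1.17. CDH5, the cadherin of endothelial junctions, had 1.46 and 1.33 FPKM, against 1.48 and 1.48 FPKM (95% interval of the log2 difference -0.40 to 0.41).

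WNT ligands bind Frizzled receptors and stabilise beta-catenin, and cells answer with feedback inhibitors and secreted antagonists. Of 9 WNT ligand and secretion genes, 0 rose and 0 fell with edgeR or DESeq2, and 4 had an unadjusted p under 0.05 in edgeR. Unadjusted p-values that low were common over all genes, so that count is no result about the list. WLS, which carries WNT ligands to the cell surface, had 78.2 and 74.9 FPKM with the combination, against 101 and 94.8 FPKM in the control. Of 16 feedback targets, 5 fell and 1 rose; of these NKD1 and CDX2 met the level only through the control and NKD2 only through the combination. NKD1, an inhibitor within the pathway, had 0.29 and 0.39 FPKM, against 1.11 and 1.22 FPKM in the control (log2 -1.69 ± 0.23; edgeR, adjusted p = 1.35e-06). Its relative NKD2 was called as higher at 2 and 1.68 FPKM, against 0.97 and 0.89 FPKM, and stood at 0.94 without combination replicate 1. FZD7, a Frizzled receptor, had 28.2 and 29.2 FPKM, against 67.1 and 60.4 FPKM (log2 -1.06 ± 0.08), and SFRP1, MSX2 and CDX2 fell as well. AXIN2, a target often used as a readout, had 3.68 and 3.63 FPKM, against 4.71 and 4.38 FPKM, and was not called (log2 -0.22; edgeR, adjusted p = 0.113), and LEF1, a partner of beta-catenin, was under the fold limit at -0.82. Among 10 R-spondins and secreted antagonists, members of the frizzled-related family moved in both directions. FRZB (chromosome 2, 183698002 to 183731890 on GRCh37, minus strand) had 639 and 685 FPKM, against 263 and 280.1 FPKM (log2 1.38 ± 0.22; edgeR, adjusted p = 0.000317), and SFRP2 had 29.6 and 27.8 FPKM, against 10.2 and 11.7 FPKM (log2 1.48 ± 0.21). SFRP2 was not called with limma on log2(FPKM + 0.1) (adjusted p = 0.0516). SFRP1 had 20.9 and 20.4 FPKM, against 58 and 59.3 FPKM (log2 -1.42 ± 0.09; edgeR, adjusted p = 8.10e-12). In FRZB, SFRP2 and SFRP1 the groups did not overlap, as in every called gene. Of 8 HOX genes, which give cells their position along the trunk, HOXB8 and HOXC8 rose and 0 fell, with HOXC8 at the level only through the combination; HOXB8 had 5.1 and 6.61 FPKM, against 1.16 and 1.43 FPKM (log2 2.26 ± 0.24), while the more anterior HOXB3 had 21 and 21.1 FPKM, against 26.8 and 24.4 FPKM, and was not called.

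BMP and NOTCH genes fell in part. Of 17 BMP ligand and target genes, 4 fell and 0 rose (median log2 -0.58). BMP7 had 1.53 and 1.57 FPKM with the combination, against 5.96 and 8.25 FPKM in the control (log2 -2.11 ± 0.21), and BMP2, a ligand that favours heart formation, had 5.58 and 6 FPKM, against 15.2 and 19.9 FPKM (log2 -1.51 ± 0.13; edgeR, adjusted p = 1.43e-08). GREM1, a BMP antagonist that met the level only through the control, had 0.33 and 0.63 FPKM, against 1.09 and 1.76 FPKM (log2 -1.49 ± 0.44), and adjusted p-values of 0.131 without control replicate 2 and 0.154 without combination replicate 1 (edgeR). All 12 NOTCH pathway genes had log2 differences below 0 (median -0.90), and 4 fell. JAG1, a NOTCH ligand, had 12.7 and 11.8 FPKM, against 29.8 and 28.9 FPKM (log2 -1.17 ± 0.09; edgeR, adjusted p = 2.71e-10). HEYL and NRARP, targets of the pathway, fell by 1.37 and 1.37 on the log2 scale, and NOTCH1, a receptor, by 1.12, with -0.95 without control replicate 1. STMN2, a microtubule protein of neurons, had 67.9 and 68.7 FPKM, against 23.2 and 23.7 FPKM (log2 1.63 ± 0.16), while NES, an intermediate filament of progenitors, fell by 1.16. MYC, a regulator of growth, had 8.67 and 8.99 FPKM, against 3.11 and 3.61 FPKM (log2 1.49 ± 0.14; edgeR, adjusted p = 2.08e-09), the 1 called gene of 8 immediate early genes.

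Enzymes of lipid synthesis fell in 3 of 21 cases with the combination. SCD, the desaturase that makes monounsaturated fatty acids (chromosome 10, 102106881 to 102124591 on GRCh37, plus strand), had 81.6 and 70.5 FPKM with the combination, against 218 and 235 FPKM in the control (log2 -1.49 ± 0.10; edgeR, adjusted p = 6.24e-11). FASN, fatty acid synthase, had 14.1 and 13.2 FPKM, against 42.2 and 39.1 FPKM (log2 -1.48 ± 0.11), and DHCR7, a late enzyme of cholesterol synthesis, had 12.9 and 11.8 FPKM, against 26.1 and 30.3 FPKM (log2 -1.1, and -0.96 without control replicate 2). Of these 21 cholesterol and fatty acid synthesis genes, 20 had log2 differences below 0 (median -0.53). SLC2A3, a glucose transporter, had 23.4 and 22.3 FPKM, against 72.2 and 88.5 FPKM (log2 -1.73 ± 0.13; edgeR, adjusted p = 5.16e-09), while SLC2A1, the widespread one, had 215 and 226 FPKM, against 124 and 129 FPKM, under the fold limit (log2 0.89). SLC2A4, the transporter that answers to insulin and met the level only through the control, was the other called gene of 21 in glucose uptake and glycolysis and stood at -0.85 without combination replicate 1. Of 20 carbonic anhydrases and proton or bicarbonate carriers, CA4, a membrane carbonic anhydrase, fell, at 1.19 and 0.84 FPKM with the combination and 3.92 and 4.14 FPKM in the control (log2 -1.89 ± 0.23). With edgeR and with DESeq2, 0 genes were called among 23 TCA cycle, 21 fatty acid oxidation, 15 lactate, 14 hypoxia and 13 mitochondrially encoded genes, of which 18, 13, 7, 4 and 8 had an unadjusted p under 0.05 in edgeR. Over all 14651 genes, 631 were called and a further 4910 had an adjusted p under 0.05. An unadjusted p under 0.05 was thus common, and such counts, here and below, are not read as results about the lists. All 30 cytosolic ribosomal protein genes of the list had log2 differences above 0 (median 0.59) and an unadjusted p under 0.05 in edgeR, but 0 passed the fold limit in edgeR or DESeq2, with RPS2 at 707 and 734 FPKM, against 544 and 570.01 FPKM. All 38 complex I genes were above 0 as well (median 0.34); 25 had an unadjusted p under 0.05 in edgeR, and 0 were called with edgeR or DESeq2. By exonic length, the median log2 difference was 0.03 for genes under 1000 bases, 0.19 for those of 1000 to 2000 bases and -0.10 for those over 8000, and the part of length was not tested. Of 20 mitotic genes 19 had log2 differences below 0 (median -0.36), 17 had an unadjusted p under 0.05 in edgeR, and 0 were called with edgeR or DESeq2; MKI67, a marker of dividing cells, had 5.12 and 4.58 FPKM, against 9.38 and 8.91 FPKM (log2 -0.82 ± 0.11).

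Against IWP2 alone, the combination asks what NaHCO3 added in its presence. Of the 14651 genes, 1513 rose (10.3%) and 990 fell (6.76%), 2503 in all (17.1%). The genes were taken for their level in the combination and the control alone, which favours rises against either single agent. With no filter on low counts, 2395 rose and 1890 fell. Liver products were higher: 21 of 22 plasma proteins and all 10 apolipoproteins rose, and AFP had 3109 and 2934 FPKM with the combination, against 92.3 and 78.8 FPKM with IWP2 alone (log2 5.21 ± 0.69; edgeR, adjusted p = 1.81e-05). ORM1, an acute phase glycoprotein, had 5.79 and 5.06 FPKM with the combination and no counts with IWP2 alone; with 3 counts in each IWP2 library as the floor, it was at least 50.04-fold higher. Of 19 Z-disc genes 16 fell and 0 rose, of 10 myosin genes 8 fell and 0 rose, of 20 cardiac transcription factors 14 fell and 2 rose, and of 19 chamber identity genes 10 fell and 6 rose. MYH6 differed by -5.75 ± 0.79 on the log2 scale (edgeR, adjusted p = 2.55e-05). Against NaHCO3 alone, which asks what IWP2 added, 967 genes rose (6.60%) and 473 fell (3.23%), 1440 in all (9.83%), a split that was 1125 to 326 with limma on log2(FPKM + 0.1). With no filter on low counts the split was 1495 to 1010. Of 19 Z-disc genes 15 rose and 0 fell, of 10 myosin genes 8 rose and 0 fell, of 20 cardiac transcription factors 9 rose and 3 fell, and of 14 channel, pump and connexin genes 5 rose and 2 fell. MYH6 stood at 3.48 ± 0.85 on the log2 scale (edgeR, adjusted p = 0.00389). NPPA had no counts with NaHCO3 alone and was at least 27.4-fold higher with the combination, against the same floor. TBX18, a factor of epicardium and sinus horn, had 44.3 and 40.4 FPKM with the combination, against 0.23 and 0.24 FPKM with NaHCO3 alone (log2 7.38 ± 0.54; edgeR, adjusted p = 1.26e-07), and POU4F1, a homeobox factor of sensory neurons, had 14.2 and 14 FPKM, against 0.11 and 0.07 FPKM. PITX1, a factor of the hindlimb, was lower, at 2.05 and 2.25 FPKM with the combination and 44 and 41 FPKM with NaHCO3 alone, as was COL15A1, a basement membrane collagen, at 1.85 and 1.84 FPKM, against 25.4 and 30.9 FPKM. Of 20 mitotic genes 12 rose against NaHCO3 alone, while the call limits were met by 0 against IWP2 alone (median log2 -0.12). The share of counts from mitochondrially encoded genes differed along with these contrasts, at 7.54% and 7.85% with IWP2 alone and 2.54% and 2.40% with NaHCO3 alone, and its part was not tested.

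Whether NaHCO3 acted differently with IWP2 present was tested as an interaction, the log2 difference of the combination over IWP2 minus that of NaHCO3 over control. It was called for 2713 of the 14651 genes (18.5%), with a positive sign in 1875 (12.8%) and a negative one in 838 (5.72%). Taking genes for their level in the combination and the control favours positive values, so the split of signs is not read as a result. With no filter on low counts, 2733 were positive and 1232 negative. For AFP, NaHCO3 shifted the level by 5.21 on the log2 scale with IWP2 and by 0.03 without it, an interaction of 5.18 ± 0.87 (edgeR, adjusted p = 0.000229). All 22 liver plasma proteins, 9 of 10 apolipoproteins and 10 of 12 epicardial genes had positive calls, and 0 epicardial genes a negative one. WT1 had 12.1 and 11.9 FPKM with the combination, 4.8 and 3.88 FPKM with IWP2, 0.52 and 0.39 FPKM with NaHCO3 and 16.1 and 14.5 FPKM in the control, an interaction of 6.4 ± 0.25 (edgeR, adjusted p = 3.99e-17). For WT1 the libraries given both agents lay nearer the control than those given either one. SCN7A, a sodium-sensing channel, had 7.2 and 6.61 FPKM with the combination, 1.26 and 0.92 FPKM with IWP2, 0.07 and 0.04 FPKM with NaHCO3 and 4.85 and 3.6 FPKM in the control, an interaction of 8.81 ± 0.38. Of 20 mitotic genes 16 had positive calls and 0 negative ones: MKI67 differed by -0.48 with IWP2 and by -2.05 without it, an interaction of 1.57 ± 0.16. NKX2-5 was lower with NaHCO3 in both settings, by 4.29 with IWP2 and by 6.87 without it, an interaction of 2.58 ± 0.70 (edgeR, adjusted p = 0.00557). MYH6 was not called (log2 0.86 ± 1.07; edgeR, adjusted p = 0.568). LMO3, a LIM-only factor, had a negative value of -4.07 ± 0.19 (edgeR, adjusted p = 8.05e-14). The 7 metallothioneins had positive values, 1.76 for MT1E up to 6.995 for MT1H.

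The effect of the combination was last compared between days 11 and 7, each against the control of the same day. For several heart genes the sign turned round between the days. On day 11 MYH6 had 13.5 and 12.3 FPKM with the combination, against 88.6 and 152 FPKM in the control, and on day 7 it had 74.6 and 84 FPKM, against 31.1 and 40.2 FPKM, a difference between the effects of -4.33 ± 0.96 on the log2 scale (edgeR, adjusted p = 0.00439). The day 7 effect of MYH6 was not itself called (log2 1.19 ± 0.66; edgeR, adjusted p = 0.233). NKX2-5 had 6.66 and 8.33 FPKM with the combination, against 2.23 and 2.22 FPKM in the control, on day 7, where it rose (log2 1.79 ± 0.22), and its effects differed by -3.24 ± 0.29 (edgeR, adjusted p = 2.06e-07). The difference was called for 1154 of the 14651 genes (7.88%), positive in 403 (2.75%) and negative in 751 (5.13%). It was negative for 12 of 19 Z-disc genes, 7 of 10 myosin genes, 10 of 20 cardiac transcription factors, 8 of 12 NOTCH genes and 9 of 21 lipid synthesis genes, and positive for 0 in each of these lists. Of 30 ribosomal protein genes 9 had positive calls, although 0 were called on either day. On day 7, 690 genes were called (4.71%), of which 482 rose (3.29%) and 208 fell (1.42%). Of the 264 genes that rose on day 11, 71 rose and 6 fell on day 7, and of the 367 that fell on day 11, 44 fell and 47 rose on day 7. NGFR, a neurotrophin receptor, had 2.07 and 2.67 FPKM with the combination, against 0.05 and 0.12 FPKM in the control, on day 7, and 2.12 and 2.07 FPKM, against 4.74 and 5.51 FPKM, on day 11, a difference of -5.94 ± 0.40 (edgeR, adjusted p = 9.79e-11). TRH, thyrotropin releasing hormone, and TKTL1, a transketolase relative, followed at -5.01 and -4.49. ITLN1 had a positive difference of 3.24, and HNF4A, which fell on both days, one of -1.18.

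**Figure D5:**
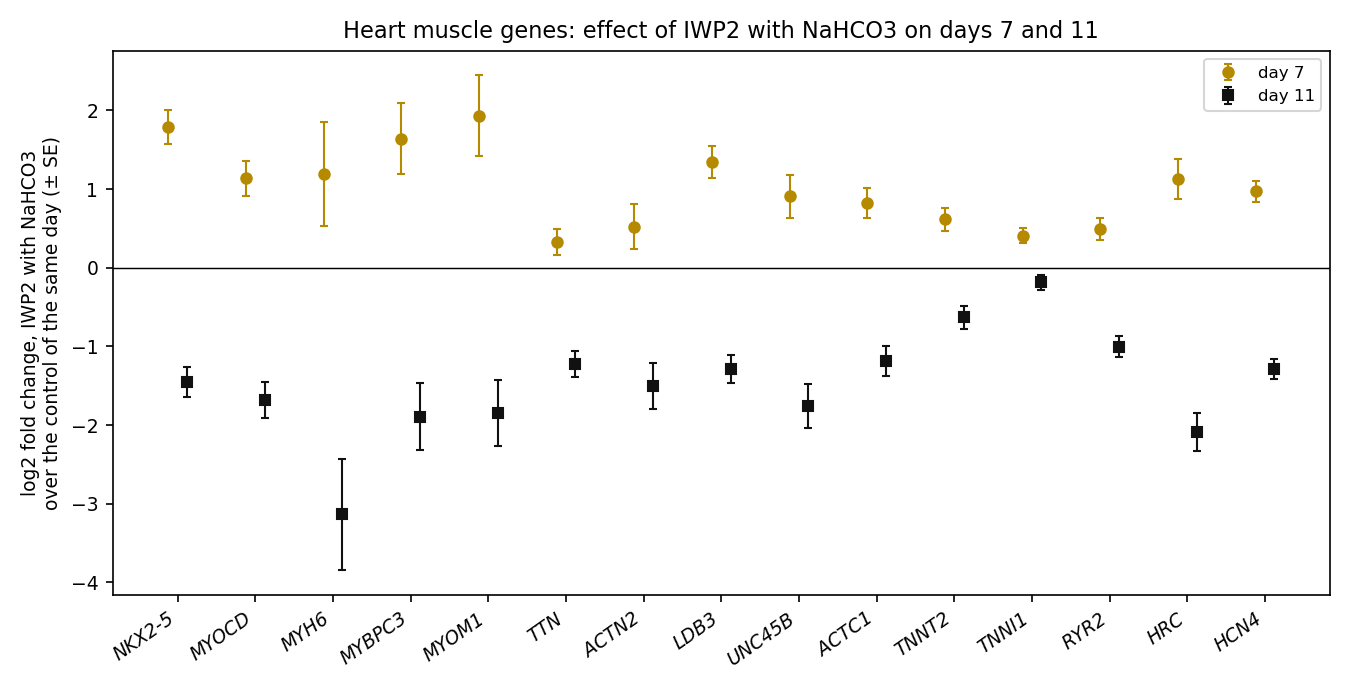
Log2 fold change of IWP2 with NaHCO3 over the control of the same day (vertical axis) for 15 heart muscle genes on day 7 (yellow circles) and day 11 (black squares), with bars of 1 SE either side. Each of the 15 lies above 0 on day 7 and below 0 on day 11, with MYH6 at 1.19 and -3.13. The 15 were picked by hand, so their shared signs are no result about heart genes at large. NPPA, which rose on day 11, and MYH7 and PLN, not called then, are left out. On day 7, 4 of 19 Z-disc genes and 4 of 10 myosin genes were called, all as higher.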

How the data were processed

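RNAiso Plus was used for extraction and the VAHTS Universal V8 kit for libraries, from 1 µg RNA each, per the labels' protocols. Per the submitters' processing notes, cutadapt 1.9.1, HISAT2 2.0.1 and HTSeq 0.6.1 were used with the GRCh37 build. The authors deposited whole-number counts per gene, and beside them FPKM values, which match FPKM recomputed from these counts and the table's exon lengths within a ratio of 0.999 to 1.001. The strand setting of counting is not given in the sources used here, so a gene and an antisense partner cannot be told apart. Library totals of counts lay between 14090004 and 20445875 in the table used. It holds 26 libraries in 13 groups, all fitted together so that they share 1 estimate of the spread.

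Counts of 18451 genes with at least 1 FPKM in 2 or more of the 26 libraries were scaled by TMM and tested with edgeR 4.0.16 (robust quasi-likelihood F test, R 4.3.3), with p-values adjusted by Benjamini-Hochberg over all of them. The standard error is the size of the log2 fold change over the square root of F, and a 95% interval is the normal one from it. The common dispersion, as a biological coefficient of variation, was 0.0669 with 13 residual degrees of freedom. DESeq2 1.42.0, limma 3.58.1 on log2(FPKM + 1) and log2(FPKM + 0.1), other filters and scalings, a replicate block and leaving out each library were alternatives. Calls were tested on simulated counts of these 18451 genes for the combination against control. In them 200 genes were changed, with expected counts of at least 50. Calls reached 38%, 98%, 100% and 100% of genes changed 2-fold, 3-fold, 4-fold and 8-fold, and 2 unchanged genes. A 2-fold change equals the fold limit for a call, so the 38% largely reflects that limit. No pair of libraries agreed within sampling noise. The spread differed between groups, by a chi-square per gene over genes with at least 50 counts. It was 2.84 for the combination and 4.67 for the control on day 11. Over all groups it ran from 1.98 for the day 7 control to 24.9 for NaHCO3 on day 7.

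The genes and the 51 lists were chosen with earlier results of these data known. Named genes are the 12 risen and 12 fallen ones with the largest change among those whose groups do not overlap and whose higher group averages 5 FPKM or more, 3 each way for each other test, up to 6 called and 2 uncalled genes per list, and a fixed panel. Metallothioneins were added after their values were seen. Some items are not reported here. Sequences came from RefSeq on GRCh38.p14, and no coordinates were carried between builds.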

Additional observations from a re-analysis of the deposited data

Results flagged for a closer look

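The action of NaHCO3 with and without IWP2 on day 11 differed in 2713 genes by the interaction test (edgeR, Benjamini-Hochberg over all genes), and the genes flagged here had differences between their effects as follows on the log2 scale. A positive value means a log2 effect of NaHCO3 that was higher, or less negative, with IWP2 present. Positive values were 5.18 for AFP, 4.29 for ALB (albumin), 3.72 for APOA1, 2.68 for HNF4A, 2.37 for HOXB6, 1.16 for COL3A1 and 1.57 for MKI67. Among heart and epicardial genes they were 2.58 for NKX2-5, 2.24 for TBX5, 1.78 for MYL7, 6.58 for NPPA, 8.45 for TBX18 and 6.4 for WT1. NKX2-5 and MKI67 were lower with NaHCO3 in both settings, by less with IWP2 present. SCN7A stood at 8.81 and ORM1 at 8.45. Negative values were -4.07 for LMO3, -4.04 for RTN4RL1 and -1.51 for CDH5. NPPA had no counts with NaHCO3 alone and ORM1 none with IWP2 alone, so those fitted values depend on the prior count and are no bound. NKX2-5, SCN7A, TBX18 and WT1 were below 1 FPKM with NaHCO3 alone, and ALB with IWP2 alone. The size of their values rests in part on those low levels.

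The effect of the combination differed between day 11 and day 7 in 1154 genes by the same kind of test. Heart genes had negative values, meaning a lower effect on day 11: -4.33 for MYH6, -3.24 for NKX2-5, -2.67 for TBX5, -2.02 for ACTN2, -1.25 for TNNT2 and -1.10 for MYL7. NGFR stood at -5.94, TRH at -5.01, TKTL1 at -4.49, CDH5 at -1.84, PPARGC1A at -1.65 and HNF4A at -1.18. Positive values were 3.24 for ITLN1, 2.60 for PLCE1-AS1 and 1.40 for HOXB6. The causes of these differences were not tested.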

How the results depend on the processing

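Against the control, the 631 called genes became 643 with RLE scaling, 602 with DESeq2, 637 with day 11 libraries only, 641 without mitochondrially encoded genes, 616 with limma on log2(FPKM + 0.1) and 637 without the NaHCO3 libraries of day 7, an alternative chosen after seeing the data. With no filter on low counts, and all genes with a count tested, calls were 1118 against control, 4285 against IWP2 and 2505 against NaHCO3. With limma on log2(FPKM + 1), which understates the change of low genes, they were 323 against control, 793 against NaHCO3 and 702 for day 11 against day 7. Leaving out 1 library in turn gave 590 to 650 calls against control, 2337 to 2604 against IWP2, 1373 to 1454 against NaHCO3, 2594 to 2734 for the interaction and 1039 to 1146 for the days. With 1 library left in a group, that library is assumed to vary like the other groups. Limma on log2(FPKM + 0.1) moved the median over all genes to 0.18 for the interaction, from 0.05 with edgeR. Deviations of same-numbered libraries correlated at 0.06 between combination and control. Over 15 pairs of day 11 groups the values ran from -0.16 to 0.15, with 1 of them over 0.1. Such values show no strong shared deviation, but they cannot tell whether same-numbered libraries shared a batch. The replicate block gave 624 calls against control, 2496 against IWP2, 1436 against NaHCO3, 2710 for the interaction and 1137 for the days, and APOA1 was the 1 named gene to lose its call, at -0.997. Of 123 called genes among the 231 named, 75 kept the call in each alternative, 48 lost it in 1 or more, and 0 turned sign; 6 uncalled ones were called in 1 or more. With day 11 libraries only, calls were lost for GREM1 (adjusted p = 0.14), CRABP1 (0.0609) and SYNPO2L (0.0666) among others, all edgeR. In simulated counts 2-fold changes were called less often than larger ones. A 2-fold change lies at the fold limit itself, so that share does not measure the depth. The causes of lost calls were not tested.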

Other observations

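Smooth muscle, imprinted and stress genes showed few calls with the combination against control on day 11. GDF15 and CRABP1, given below, met the level only through the control, so that their selection favours a fall. Of 11 smooth muscle genes, CNN1, calponin, fell, with 10.8 and 9.48 FPKM with the combination and 23 and 21.8 FPKM in the control (log2 -1.05 ± 0.10, and -0.96 without combination replicate 2), and SYNPO2, an actin-binding protein, rose by 1.18 on the log2 scale. Of 12 imprinted genes 0 were called with edgeR or DESeq2 and 10 had an unadjusted p under 0.05 in edgeR. Such p-values were common over all genes, and the count is not read as a result about the list. GDF15, a stress-induced cytokine, was the 1 called gene of 17 genes of the integrated stress response and of 18 p53 targets, at 0.38 and 0.71 FPKM with the combination and 1.18 and 1.32 FPKM in the control (log2 -1.12, and no longer called at -0.71 without combination replicate 1 and -1.02 without control replicate 2). CRABP1, a retinoic acid carrier, had 0.99 and 0.89 FPKM with the combination and 2.01 and 2.48 FPKM in the control (log2 -1.16 ± 0.36), and lost its call without control replicate 2 (log2 -0.98) and without combination replicate 1 and 2 (adjusted p = 0.0661 and 0.0861, edgeR).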
